A study of Mus musculus with 36 samples.

Results

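The transcript levels of *Lmna*, *Rab25*, *Lamtor2* and *Ubqln4*, 4 of the 56246 genes in the deposited table, were examined in mouse tibia. They were chosen by symbol, as the mouse counterparts of human genes named with the *LMNA* transgene of this progeria model, and each symbol stood on 1 row. Hutchinson-Gilford progeria syndrome is caused by a base change in *LMNA* that makes cells splice out part of the prelamin A message and produce progerin, a lamin A that keeps its lipid anchor. The transgenic mice carry human *LMNA* with the G608G change on a bacterial artificial chromosome, in addition to their own *Lmna*. The study's methods also place *RAB25* on that insert. Whether human *LAMTOR2* and *UBQLN4* lie on it is not given in the sources used here.

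Bulk RNA had been sequenced from 36 tibiae, 12 each from wild-type mice, from *LMNA* G608G/G608G mice given saline and from *LMNA* G608G/G608G mice given ABE, all 6 months old and with 6 males and 6 females per group. The double-copy transgenic mice, bred on C57BL/6J, are called *LMNA* G/G. They had received saline or ABE, an adenine base editor carried by adeno-associated virus and aimed at the mutant base of the transgene, by retro-orbital injection 14 days after birth. The wild-type mice bear the treatment label NT. Epiphyses and marrow had been removed from the bones. The study calls the mice littermates, while the labels give neither litters nor batches. Wild-type mice have mouse numbers of a series of their own, and any batch that followed these numbers cannot be told apart from genotype.

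Levels are given as scaled TPM, meaning TPM divided by the library's median ratio to the average library. Libraries held 48064068 to 116206662 reads on genes. The ABE-treated replicate 1, a female, stood apart with a size factor of 0.219 against 0.610 to 1.57 in the other 35 libraries. Human and mouse reads cannot be told apart in gene-level values, so that a level in *LMNA* G/G mice may hold both. Fewer cells of a type and less RNA per cell also cannot be told apart in whole tissue. Bone was present in each library, as the sum of 6 osteoblast markers lay between 443 and 2555 scaled TPM over the 36 libraries. Marker levels differed between the groups, however. The sum of 6 osteocyte markers lay between 10.4 and 48.8 scaled TPM in wild-type mice but between 170.2 and 489.7 in saline-treated mice, and skeletal muscle markers rose with each group.

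As background, *Lmna* encodes lamins A and C, the filaments that line the inner nuclear membrane and are abundant in stiff, mechanically loaded tissues such as bone and muscle. *Lamtor2* encodes a subunit of Ragulator, the lysosomal scaffold that recruits Rag GTPases and mTORC1 when amino acids are plentiful. *Ubqln4* encodes a ubiquilin, a shuttle that carries ubiquitinated proteins to the proteasome. *Rab25* encodes a Rab11-family GTPase of recycling endosomes that is known from epithelial cells.

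In the mouse the 4 genes lie within 89.6 kb of chromosome 3 (GRCm38, GENCODE vM21). *Lmna* (ENSMUSG00000028063.15) spans chr3:88480147-88509956 on the minus strand. *Rab25* (ENSMUSG00000008601.12, chr3:88542029-88548300) follows 32.1 kb away on the same strand. *Lamtor2* (ENSMUSG00000028062.15, chr3:88549819-88553074), also on the minus strand, begins 1.52 kb beyond *Rab25*. *Ubqln4* (ENSMUSG00000008604.11, chr3:88553758-88569725) lies on the plus strand, head to head with *Lamtor2* across a gap of 683 bases.

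Bases upstream of the divergent *Ubqln4* and *Lamtor2* starts are shown because both of these neighbouring genes were higher in *LMNA* G/G tibia. The *Ubqln4* stretch is the 250 bases before its RefSeq start (GRCm38.p6, chr3:88553466-88553715, plus strand), and the *Lamtor2* stretch is the 127 bases beyond the end of the GENCODE gene (chr3:88553075-88553201, minus strand).
Ubqln4 promoter: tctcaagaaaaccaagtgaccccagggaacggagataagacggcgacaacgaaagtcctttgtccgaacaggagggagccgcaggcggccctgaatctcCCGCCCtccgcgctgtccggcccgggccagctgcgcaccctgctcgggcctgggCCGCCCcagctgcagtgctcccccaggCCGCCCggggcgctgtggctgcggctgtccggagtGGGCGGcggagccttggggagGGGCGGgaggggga
Lamtor2 promoter: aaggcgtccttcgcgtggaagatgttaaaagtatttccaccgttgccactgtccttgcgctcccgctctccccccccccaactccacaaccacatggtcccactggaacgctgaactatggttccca
Capitals mark the GC box, GGGCGG on either strand, which occurs 5 times in the printed *Ubqln4* stretch and 0 times in that of *Lamtor2*. The RefSeq start of *Lamtor2* lies inside the GENCODE gene, so the bases nearest to that start are not printed. These counts therefore cover unlike stretches. In full RefSeq windows of 300 bases (250 before and 50 after the start) there were 6 matches for *Ubqln4*, 1 for *Lamtor2* and 0 for *Rab25*, and 35.7% of the 32851 mouse windows held at least 1. The *Ubqln4* window had 73.3% G and C bases, a share reached by 5.46% of windows, against 60.0% for *Lamtor2*, 58.3% for *Rab25* and a median of 52.7%. The TATA box, TATAAA on either strand, was in 13.6% of windows and in none of those of the 4 genes.

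In wild-type tibia the levels were ordered *Lmna*, *Lamtor2*, *Ubqln4* and *Rab25*, and no neighbours in this order overlapped. *Lmna* was at 9.56 ± 1.05 scaled TPM (SD, n = 12), *Lamtor2* at 5.96 ± 0.755, *Ubqln4* at 3.47 ± 0.318 and *Rab25* at 0.112 ± 0.0283. Within single libraries *Lmna* was above *Lamtor2* in 12 of 12 wild-type, 11 of 12 saline-treated and 12 of 12 ABE-treated mice. *Lamtor2* was above *Ubqln4* in 12, 12 and 11 of 12. Across libraries the ranges of *Lmna*, *Lamtor2* and *Ubqln4* overlapped with their neighbours in both *LMNA* G/G groups, whereas *Rab25* was lowest in each of the 36 libraries.

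**Figure D1:**
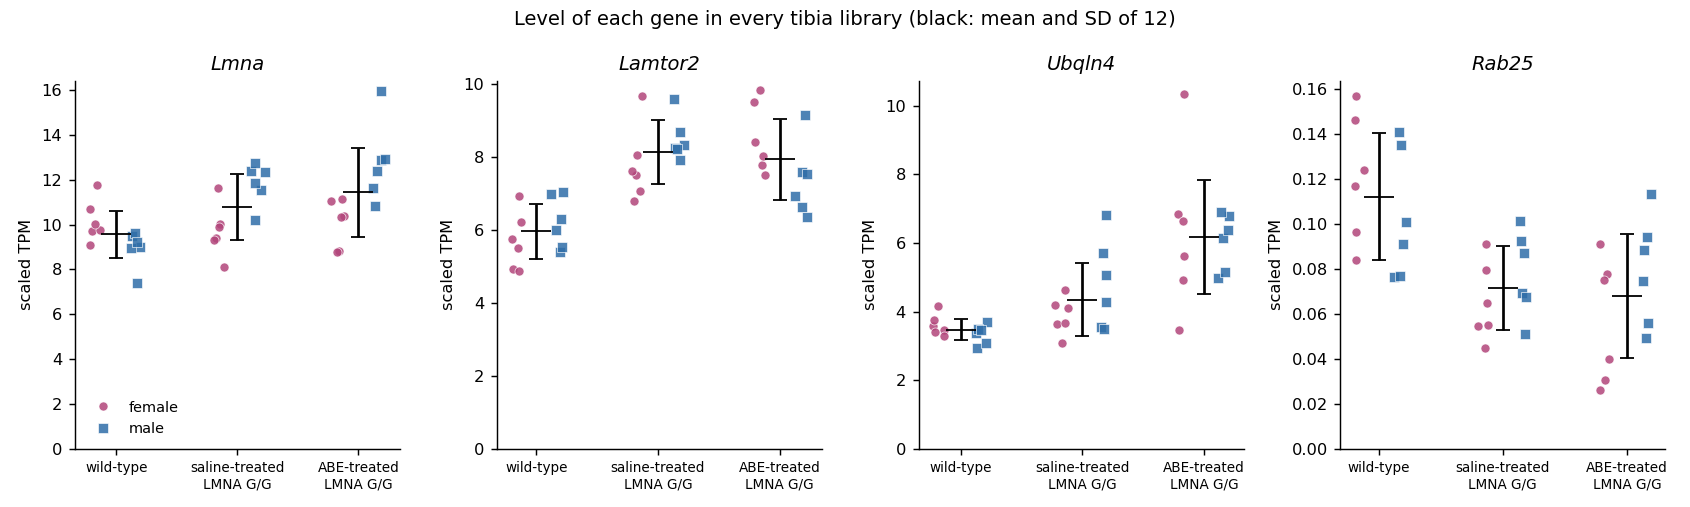
Scaled TPM (y axis, from 0) of each gene in the 36 tibia libraries by group (x axis), with 1 point per mouse marked by sex and the mean and SD of 12 in black. All 12 male *LMNA* G/G mice lie above the 6 wild-type males for *Lmna*, *Lamtor2* lies higher in both *LMNA* G/G groups, *Ubqln4* spreads widest in ABE-treated mice, and *Rab25* lies lower in *LMNA* G/G mice.

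The first question was whether *Lmna* differed in bone that carries the human transgene. Over both sexes *Lmna* was at 1.12-fold the wild-type level in saline-treated and at 1.18-fold in ABE-treated *LMNA* G/G mice, and the second of these passed the test. Wild-type mice lay between 7.41 and 11.7 scaled TPM (median 9.56). Saline-treated mice lay between 8.11 and 12.7 (median 10.9), and ABE-treated mice between 8.80 and 16.0 (median 11.1). The groups overlapped widely, with 4 of 12 saline-treated and 4 of 12 ABE-treated mice above the highest wild-type mouse.

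The log2 fold change of *Lmna* against wild-type was 0.16 ± 0.075 (SE, adjusted p = 0.0676, limma) after saline and 0.24 ± 0.075 (adjusted p = 0.00549) after ABE. The 95% intervals ran from 1.01-fold to 1.24-fold and from 1.06-fold to 1.31-fold. ABE-treated against saline-treated mice gave 0.075 (95% interval -0.077 to 0.23, adjusted p = 0.423). Calls were common in this tissue, as 52.3% of the 15902 genes tested were called for saline-treated against wild-type, 70.2% for ABE-treated against wild-type and 48.3% for ABE-treated against saline-treated mice. The share called and higher was 27.7%, 35.0% and 23.2%, against 2, 3 and 1 of the 3 genes *Lmna*, *Lamtor2* and *Ubqln4*. The median log2 fold change of all genes tested was 0.019, -0.018 and -0.016.

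TPM as deposited moved that median to -0.13, -0.42 and -0.27, with 1030 genes higher and 3578 lower, 1482 higher and 9273 lower, and 540 higher and 6476 lower. On scaled TPM these splits were 4411 and 3904, 5560 and 5596, and 3684 and 3990. On TPM as deposited *Lmna* was at -0.025 after saline and -0.31 after ABE against wild-type, both above the median on that scale. With the mean of 13 skeletal muscle markers as a covariate, *Lmna* was at -0.023 after ABE (adjusted p = 0.855).

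In males *Lmna* rose in both *LMNA* G/G groups. Wild-type males lay between 7.41 and 9.65 scaled TPM, saline-treated males between 10.2 and 12.7, and ABE-treated males between 10.8 and 16.0. No male *LMNA* G/G mouse overlapped the wild-type males, a separation shown by 28.4% of tested genes after saline and 39.2% after ABE. Females lay between 9.08 and 11.7 scaled TPM in wild-type, 8.11 and 11.6 after saline and 8.80 and 11.1 after ABE. The female groups overlapped.

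Fitted in males alone, *Lmna* rose by 0.39 on the log2 scale after saline (adjusted p = 0.00110) and by 0.48 after ABE (adjusted p = 1.12e-04), where 54.4% and 65.7% of genes were called. Fitted in females alone, it was at -0.063 (adjusted p = 0.647) and -0.012 (adjusted p = 0.921), where 20.6% and 54.3% were called. The male minus female interaction was 0.50 ± 0.12 (SE, adjusted p = 0.0203) for ABE-treated against wild-type mice, a call made for 3.68% of genes. For saline-treated against wild-type mice it was 0.45 ± 0.12 (adjusted p = 0.0505, 1.03% of genes called). For ABE-treated against saline-treated mice it was 0.046 ± 0.12 (adjusted p = 0.853, 0.0566% called).

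The sexes also differed in level within wild-type mice, where *Lmna* was at 10.2 ± 0.936 (SD, n = 6) scaled TPM in females and 8.95 ± 0.803 in males. Muscle RNA differed alongside, with a median marker sum of 1312 scaled TPM in wild-type females and 962 in wild-type males. The medians were 2332 and 3496 in saline-treated and 8391 and 6698 in ABE-treated females and males. With the muscle covariate the interaction was 0.41 for ABE-treated against wild-type (adjusted p = 0.0230) and 0.30 for saline-treated against wild-type mice (adjusted p = 0.217).

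*Lamtor2*, the Ragulator subunit, rose in both *LMNA* G/G groups. Wild-type mice lay between 4.88 and 7.04 scaled TPM (median 5.86). Saline-treated mice lay between 6.79 and 9.67 (median 8.14), and ABE-treated mice between 6.36 and 9.83 (median 7.68). The highest wild-type mouse was passed by 11 of 12 saline-treated and 9 of 12 ABE-treated mice.

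The log2 fold change of *Lamtor2* against wild-type was 0.42 ± 0.069 (SE, adjusted p = 6.56e-06) after saline, or 1.34-fold, and 0.38 ± 0.069 (adjusted p = 1.18e-05) after ABE. ABE-treated against saline-treated mice gave -0.040 (adjusted p = 0.660), with a 95% interval from 0.882-fold to 1.07-fold. *Lamtor2* rose in either sex, at 0.42 (adjusted p = 0.00598) in females and 0.43 (adjusted p = 4.69e-04) in males after saline. After ABE it was at 0.54 (adjusted p = 4.10e-04) in females and 0.23 (adjusted p = 0.0239) in males. None of its 3 sex interactions passed the test, at adjusted p of 0.976, 0.148 and 0.220.

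With the muscle covariate *Lamtor2* was again called, at 0.38 (adjusted p = 1.66e-04) after saline and 0.29 (adjusted p = 0.0196) after ABE. With 4 covariates, for muscle, neutrophil, B cell and erythroid markers, it was at 0.31 (adjusted p = 0.0594) and 0.17 (adjusted p = 0.317). On TPM as deposited it was at 0.24 (adjusted p = 0.226) and -0.15 (adjusted p = 0.362), both above the median of all genes on that scale. Of the 3 added lists, 2 of 8 neutrophil markers rose after saline and 2 fell after ABE. B cell markers fell in 5 of 7 cases after saline and 6 of 7 after ABE, and tested erythroid markers in 1 and 6 of 7. The calls made up 25%, 71.4% and 14.3% of the 3 lists after saline, against 52.3% of all genes, and 25%, 85.7% and 85.7% after ABE, against 70.2%.

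*Ubqln4*, the ubiquilin, was the gene of the 3 that was called between ABE-treated and saline-treated mice. Wild-type mice lay in a narrow range between 2.94 and 4.17 scaled TPM (median 3.46). Saline-treated mice lay between 3.09 and 6.81 (median 4.15), and ABE-treated mice between 3.46 and 10.4 (median 6.26). The highest wild-type mouse was passed by 6 of 12 saline-treated and 11 of 12 ABE-treated mice, and the highest saline-treated mouse by 3 of 12 ABE-treated mice.

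The log2 fold change of *Ubqln4* against wild-type was 0.26 ± 0.11 (SE, adjusted p = 0.0468) after saline and 0.71 ± 0.11 (adjusted p = 1.22e-06), or 1.64-fold, after ABE. ABE-treated against saline-treated mice gave 0.45 ± 0.11 (adjusted p = 0.00224), or 1.37-fold. The call for saline was near its threshold and was lost in 20 of the 36 fits that left out 1 library, whether wild-type, saline-treated or ABE-treated. The highest *Ubqln4* level belonged to the ABE-treated replicate 1 with the low size factor. Without that library *Ubqln4* was at 0.26, 0.64 and 0.38 in the 3 comparisons, each called (adjusted p = 0.0214, 1.20e-06 and 0.00434). On TPM as deposited the values were 0.090, 0.19 and 0.10, none of them called.

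By sex, *Ubqln4* after ABE was at 0.66 (adjusted p = 0.00443) in females and 0.77 (adjusted p = 1.26e-04) in males against wild-type. After saline it was at 0.088 (adjusted p = 0.766) in females and 0.44 (adjusted p = 0.0113) in males. For ABE-treated against saline-treated mice it was at 0.57 in females (limma, adjusted p = 0.0271) and 0.33 in males (adjusted p = 0.087), the latter not called. The interactions did not pass the test (adjusted p = 0.854 for ABE and 0.328 for saline against wild-type, and 0.555 for ABE against saline).

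The level of *Ubqln4* followed the skeletal muscle markers within each group. The 13 markers, among them *Acta1*, *Myh4* and *Tnnt3* of the sarcomere and *Atp2a1* and *Ryr1* of calcium handling, summed to 229.9 to 3408 scaled TPM in wild-type mice, 381 to 8995 after saline and 1218 to 14459 after ABE. Against wild-type 11 of the 13 rose after saline and 13 after ABE, with median log2 fold changes of 1.33 and 2.52. These are 84.6% and 100% of the list, where 27.7% and 35.0% of all genes tested were called and higher. The medians of all genes tested were 0.019 and -0.018. In each group the mouse with the highest *Ubqln4* level was also the one with the most muscle RNA, and the mouse with the lowest level had the least. In wild-type mice, for example, 2.94 scaled TPM of *Ubqln4* stood beside a muscle sum of 229.9, and 4.17 beside 3408.

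Pearson's r between *Ubqln4* and the mean of the muscle list (both log2) was 0.919 over the 12 wild-type mice (two-sided permutation p = 3.00e-05), 0.924 over the 12 saline-treated mice (p = 1e-05, the smallest that 100000 resamples can give) and 0.930 over the 12 ABE-treated mice (p = 2.00e-05). Adjusted over 9 relations, each permutation p was 9.00e-05. Spearman's rho was 0.755 (permutation p = 0.00604, adjusted p = 0.0181), 0.937 (p = 1e-05, adjusted p = 9.00e-05) and 0.853 (p = 9.10e-04, adjusted p = 0.00409). Without the 2 mice farthest from the median in muscle RNA, r was 0.871, 0.937 and 0.890. An r at least as high was shown by 2.61%, 3.77% and 2.84% of genes, and all values of a library share its scaling.

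For *Lmna* the relation was looser. Here r was 0.744 (permutation p = 0.00742, adjusted p = 0.0167) in wild-type, 0.659 (p = 0.0186, adjusted p = 0.0334) in saline-treated and 0.378 (p = 0.223, adjusted p = 0.251) in ABE-treated mice. Spearman's rho was 0.476 (permutation p = 0.121, adjusted p = 0.156), 0.483 (p = 0.117, adjusted p = 0.156) and 0.133 (p = 0.683, adjusted p = 0.769). Without the 2 farthest mice r was 0.656, 0.370 and -0.460, so that in the saline-treated group it rested on those mice.

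For *Lamtor2*, r was -0.154 (permutation p = 0.634, adjusted p = 0.634), 0.423 (p = 0.173, adjusted p = 0.222) and 0.463 (p = 0.128, adjusted p = 0.192) in the same order. Its rho was -0.0420 (permutation p = 0.904, adjusted p = 0.904), 0.524 (p = 0.0826, adjusted p = 0.149) and 0.573 (p = 0.0564, adjusted p = 0.127), and r without the 2 farthest mice was -0.109, 0.383 and 0.886. With the muscle covariate in the fit *Ubqln4* was at -0.014 (adjusted p = 0.889) after saline and 0.17 (adjusted p = 0.109) after ABE against wild-type. ABE-treated against saline-treated mice then gave 0.19 (adjusted p = 0.0602).

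**Figure D2:**
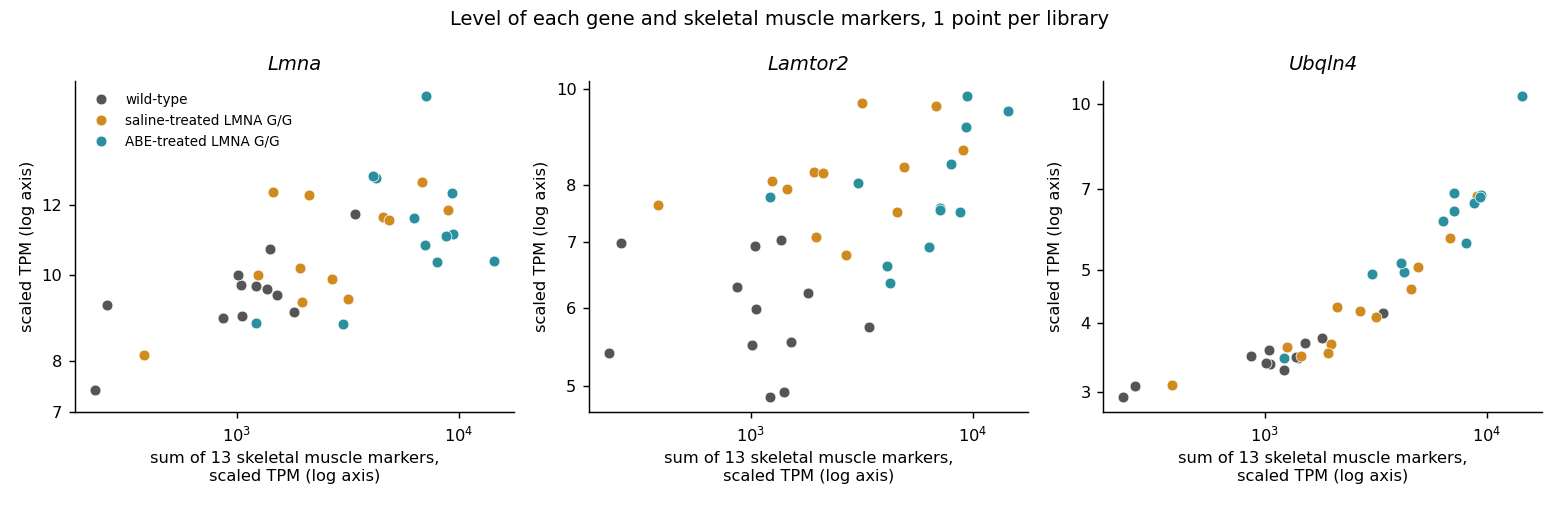
Scaled TPM of *Lmna*, *Lamtor2* and *Ubqln4* (y axis, log) against the sum of 13 skeletal muscle markers (x axis, scaled TPM, log), with 1 point per library colored by group. *Ubqln4* goes from 2.94 at a muscle sum of 229.9 to 10.4 at 14459.

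**Figure D3:**
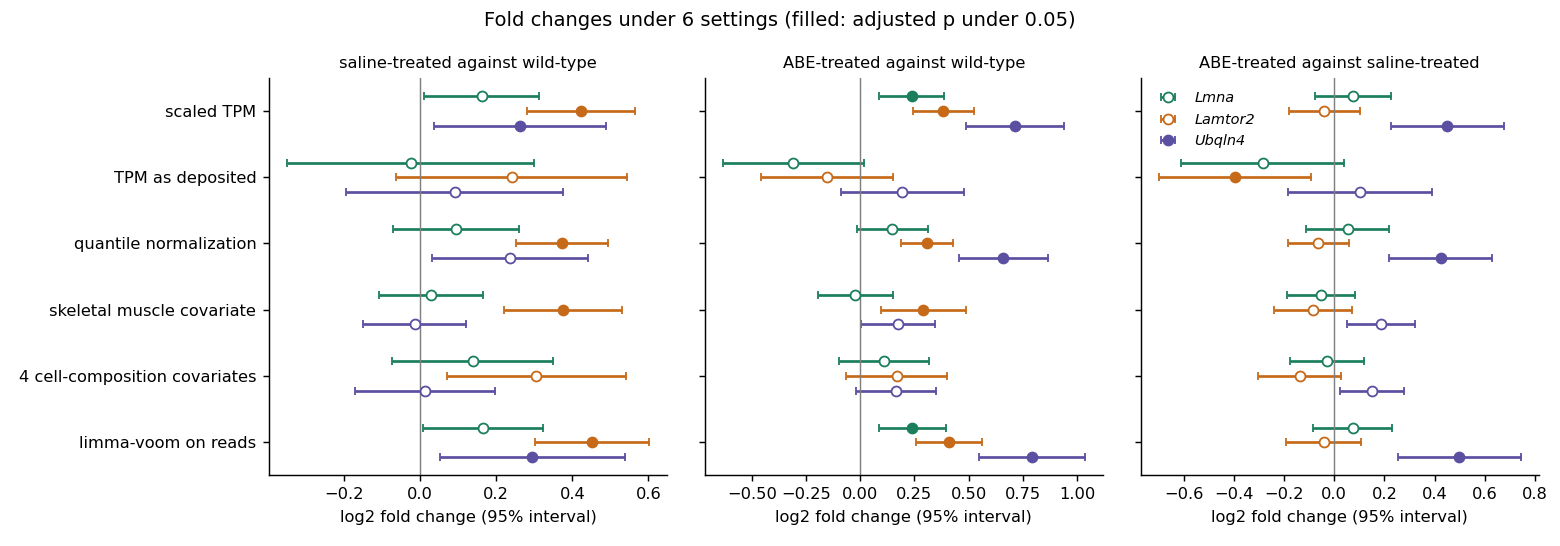
Log2 fold change (x axis) of *Lmna*, *Lamtor2* and *Ubqln4* with its 95% interval in the 3 comparisons under 6 settings (y axis), filled where the adjusted p is under 0.05. *Ubqln4* for ABE-treated against saline-treated mice goes from 0.45 on scaled TPM to 0.19 with the muscle covariate, and *Lamtor2* for saline-treated against wild-type mice from 0.42 to 0.38.

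The ratio of 2 genes within a library does not depend on how libraries are scaled. Such ratios were compared by two-sided permutation tests, chosen after the levels were seen, with p-values adjusted over 9 tests. The *Ubqln4*/*Lmna* ratio had medians of 0.363 in wild-type, 0.396 after saline and 0.545 after ABE. Its mean log2 difference against wild-type was 0.54 after ABE (permutation p = 6.00e-05, adjusted p = 5.40e-04) and 0.12 after saline (p = 0.135, adjusted p = 0.192), and 0.42 for ABE-treated against saline-treated mice (p = 0.00419, adjusted p = 0.00943). ABE-treated mice thus had more *Ubqln4* per *Lmna* than either other group. The highest ratio, 0.997, belonged to ABE-treated replicate 1, the library with the low size factor. Muscle RNA also differed between the groups, and its part in the ratio was not tested.

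The *Ubqln4*/*Lamtor2* ratio, of the head-to-head pair, had medians of 0.584, 0.520 and 0.780. It was higher by 0.38 on the log2 scale in ABE-treated than in wild-type mice (permutation p = 0.00384, adjusted p = 0.00943) and by 0.54 than in saline-treated mice (p = 6.20e-04, adjusted p = 0.00279). The *Lamtor2*/*Lmna* ratio was higher by 0.28 in saline-treated than in wild-type mice (permutation p = 0.00623, adjusted p = 0.0112). Other ratio tests were not called. *Ubqln4*/*Lamtor2* was at -0.16 in saline-treated against wild-type mice (permutation test, adjusted p = 0.192). *Lamtor2*/*Lmna* was at 0.16 in ABE-treated against wild-type mice (adjusted p = 0.233) and at -0.12 against saline-treated mice (adjusted p = 0.327). In no comparison did all 3 ratios pass the test.

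*Rab25*, which the study's methods place on the insert beside *LMNA*, was near the limit of detection and was lower in *LMNA* G/G mice. Wild-type libraries held 26 to 71 reads on *Rab25*, saline-treated libraries 18 to 52 and ABE-treated libraries 9 to 60. Wild-type levels lay between 0.0765 and 0.157 scaled TPM (median 0.109), saline-treated levels between 0.0447 and 0.101 (median 0.0683) and ABE-treated levels between 0.0261 and 0.113 (median 0.0750). Of 12 mice each, 7 saline-treated and 7 ABE-treated lay below the lowest wild-type mouse, and 0 of these 24 lay above the highest.

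With a mean under 0.5 scaled TPM, *Rab25* did not enter the fit across genes. Its mean log2(scaled TPM + 0.5) lay -0.098 from that of wild-type after saline (two-sided permutation test, p = 4.60e-04) and -0.11 after ABE (p = 9.40e-04). ABE-treated against saline-treated mice gave a difference of -0.0097 (permutation p = 0.691). The added 0.5 exceeds the level of the gene, so that these values understate the change.

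Fitted on reads with limma-voom over the 22955 genes with a mean of 10 reads or more, an alternative added after the data were seen, *Rab25* fell to 0.646-fold (95% interval 0.497 to 0.841, adjusted p = 0.00495) after saline and to 0.590-fold (0.448 to 0.777, adjusted p = 8.21e-04) after ABE against wild-type, where 55.9% and 72.8% of genes were called. ABE-treated against saline-treated mice gave 0.913-fold (0.688 to 1.21, adjusted p = 0.607). On scaled TPM the difference from wild-type was -0.13 in females (exact permutation p = 0.00433) and -0.062 in males (p = 0.113) after saline. After ABE it was -0.16 in females (exact permutation p = 0.00433) and -0.059 in males (p = 0.139). The male minus female interaction, in the fit with no filter, was 0.073 (adjusted p = 0.531) after saline and 0.098 (adjusted p = 0.378) after ABE, neither called.

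Epithelial markers were mostly at trace levels. Of 14 markers only *Epcam* reached the filter, and its mean went from 0.204 in wild-type to 1.89 after saline and 1.66 scaled TPM after ABE, a rise by 1.74 and 1.61 on the log2 scale (adjusted p = 1.90e-13 and 6.99e-13). The epithelial cadherin *Cdh1* was at means of 0.172, 0.133 and 0.0874. The keratins of basal epithelium were close to absent, with *Krt5* at 0 in 14 and *Krt14* at 0 in 15 of 36 libraries. Other listed genes had more reads, with 23 to 277 per library for *Krt18*, 102 to 609 for *St14* and 0 to 146 for *Krt8*. The list, with *Epcam* in it, summed to 0.592 to 1.01 scaled TPM in wild-type, 1.39 to 3.75 after saline and 1.67 to 2.90 after ABE. Its part in the level of *Rab25* was not tested.

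The letters WT stand inside the mouse number of 3 libraries labelled as treated, namely saline-treated replicate 9 and ABE-treated replicates 2 and 11. Their *Lamtor2* levels were 7.92, 7.78 and 7.58 scaled TPM, each above the highest wild-type mouse. Their *Ubqln4* levels were 3.49, 3.46 and 6.89, of which ABE-treated replicate 2 was the lowest of its group. Without these 3 libraries *Lmna* was at 0.15 and 0.28, *Lamtor2* at 0.43 and 0.39, and *Ubqln4* at 0.29 and 0.77 against wild-type, and no call changed.

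Genes around *Lmna* were called about as often as genes at large. Of 60 genes whose start lies within 500 kb of that of *Lmna*, 28 were tested. Against wild-type, 5 rose and 10 fell after saline and 9 rose and 10 fell after ABE, with median log2 fold changes of -0.032 and 0.0044. That is 53.6% and 67.9% called, near the 52.3% and 70.2% of all genes. *Sema4a*, which encodes a semaphorin and is the nearest tested gene on the far side of *Lmna*, fell from a mean of 4.03 to 2.78 and 1.99 scaled TPM, at -0.47 (adjusted p = 0.00370) and -0.89 (adjusted p = 6.55e-07). *Ssr2*, a subunit of the translocon-associated complex that lies beyond *Ubqln4*, rose from 6.40 to 8.74 and 7.48, at 0.42 (adjusted p = 3.01e-06) and 0.21 (adjusted p = 0.00533).

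*Mex3a*, which lies between *Lmna* and *Rab25*, was under the filter at means of 0.349, 0.354 and 0.316 scaled TPM. Mir1905, a short gene with at most 11 reads in any library, was at 1.01 after ABE (adjusted p = 0.0468). The osteocalcin genes, which lie in the same stretch, were far more abundant, with *Bglap* at means of 150.2, 172 and 178 and *Bglap2* at 108, 128 and 144 scaled TPM, and passed no test. *Pklr*, which encodes the liver and red cell pyruvate kinase and lies farther out, had means of 2.85, 2.42 and 1.22 scaled TPM and was at -1.03 after ABE (adjusted p = 1.01e-05). The 28 neighbours listed by name, of which 18 were tested, gave 3 higher and 6 lower after saline and 5 higher and 8 lower after ABE. This is 50% and 72.2% called, near the 52.3% and 70.2% of all genes.

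**Figure D4:**
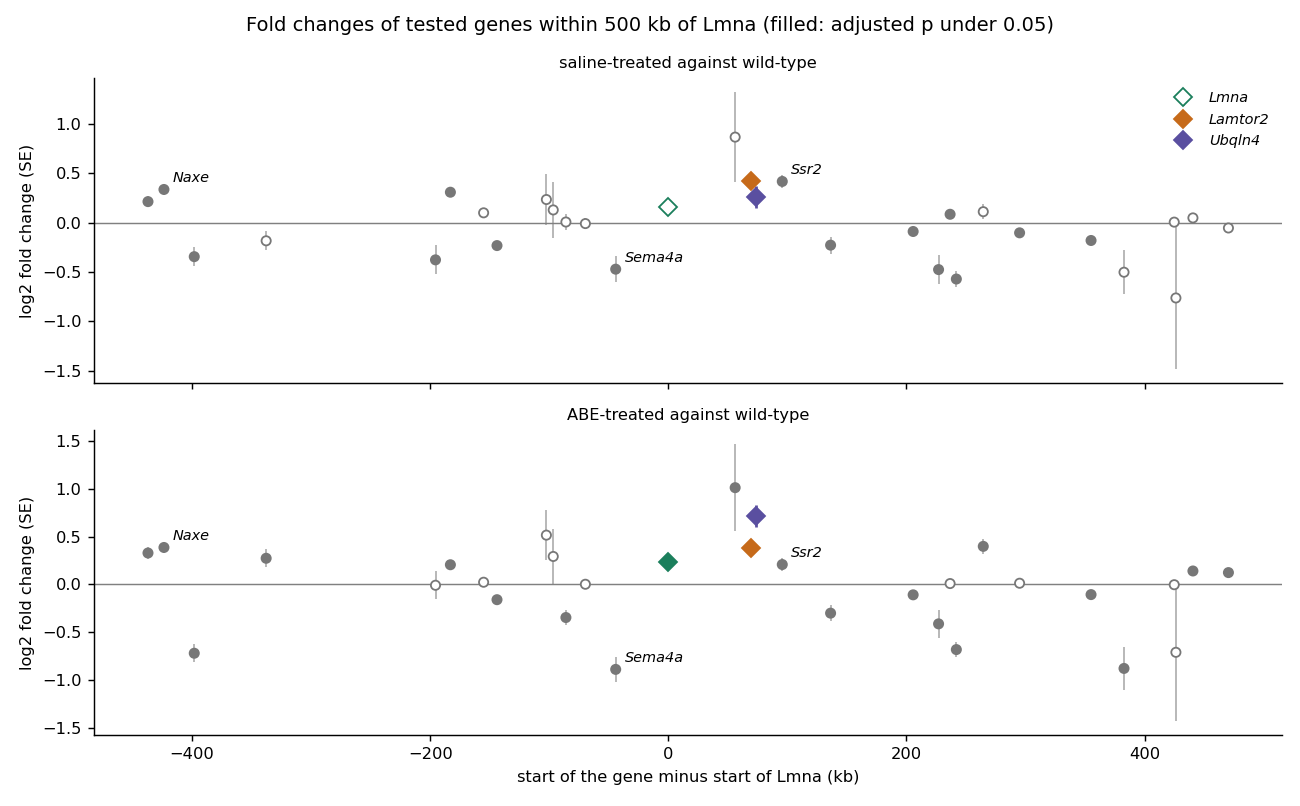
Log2 fold change with its SE (y axis) of the 28 tested neighbours (circles) and of *Lmna*, *Lamtor2* and *Ubqln4* (diamonds) against the distance of the gene's start from that of *Lmna* in kb (x axis), filled where the adjusted p is under 0.05. *Sema4a* lies at -0.47 and -0.89 on the one side of *Lmna* and *Lamtor2* at 0.42 and 0.38 on the other.

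Each gene was then set beside its own family. Of 19 other lamina genes, 4 rose and 7 fell after saline and 4 rose and 10 fell after ABE against wild-type, with medians of -0.052 and -0.10. The share called, 57.9% and 73.7%, was near that of all genes, 52.3% and 70.2%. The B-type lamin *Lmnb1* had means of 15.0, 14.6 and 9.42 scaled TPM and fell after ABE (-0.71, adjusted p = 4.28e-04). The lamin B receptor *Lbr*, at 18.3, 17.2 and 11.8, did likewise (-0.65, adjusted p = 5.08e-04). *Banf1*, which bridges chromatin and lamina, rose by 0.17 (adjusted p = 0.0216) and 0.22 (adjusted p = 0.00141). *Sun2*, which ties the lamina to the cytoskeleton, was at 16.8, 16.3 and 15.6 scaled TPM and passed no test.

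Of 16 tested genes of the Ragulator and Rag GTPase pathway, 7 rose and 3 fell after saline and 8 rose and 3 fell after ABE, with medians of 0.092 and 0.10. Called genes made up 62.5% and 68.8% of this list, against 52.3% and 70.2% of all genes. Among the Ragulator subunits, *Lamtor5* rose by 0.39 (adjusted p = 2.79e-05) and 0.49 (adjusted p = 4.69e-07), and *Lamtor1* by 0.27 (adjusted p = 0.00191) and 0.39 (adjusted p = 1.10e-05). *Lamtor3* was at 0.089 (adjusted p = 0.0491) and 0.075 (adjusted p = 0.0775), and *Lamtor4* at 0.12 (adjusted p = 0.205) and -0.019 (adjusted p = 0.845). Of these 4 subunits *Lamtor4* passed neither test. The Rag GTPase *Rragd* rose from a mean of 1.62 to 3.51 and 7.51 scaled TPM, by 0.79 (adjusted p = 0.0176) and 1.83 (adjusted p = 8.76e-07) on the log2 scale. The amino acid sensor *Slc38a9* was at -0.34 (adjusted p = 7.11e-05) and -0.53 (adjusted p = 3.82e-08), and fell in both groups.

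Of 11 tested ubiquilins and shuttle factors, 7 rose and 0 fell after saline and 8 rose and 1 fell after ABE, with medians of 0.23 and 0.29. This is 63.6% and 81.8% called, against 52.3% and 70.2% of all genes, of which 27.7% and 35.0% were called and higher. The most abundant was *Vcp*, the segregase that pulls ubiquitinated proteins from complexes, which rose from 15.9 to 18.8 and 20.5 scaled TPM, by 0.23 (adjusted p = 0.00383) and 0.34 (adjusted p = 2.19e-05). The proteasome receptor *Psmd4* rose by 0.32 (adjusted p = 6.55e-04) and 0.40 (adjusted p = 1.92e-05). The paralogs *Ubqln1* and *Ubqln2* rose by 0.27 and 0.44 after saline and by 0.26 and 0.48 after ABE. For ABE-treated against saline-treated mice they were at -0.0091 (adjusted p = 0.856) and 0.045 (adjusted p = 0.545), where *Ubqln4* was at 0.45. Whether the paralogs differ from *Ubqln4* was not tested.

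Of 11 tested genes of the Rab11 family and its effectors, 4 rose and 2 fell after saline and 4 rose and 5 fell after ABE, with medians of -0.075 and -0.015. In this family 54.5% and 81.8% were called, beside 52.3% and 70.2% of all genes. *Rab11b* rose by 0.12 (adjusted p = 3.29e-04) and 0.066 (adjusted p = 0.0303). *Rab11a* was at 0.12 (adjusted p = 0.0222) and 0.077 (adjusted p = 0.103). Both lay above the wild-type level, where *Rab25* lay below it. The effector *Rab11fip3* rose from 1.49 to 2.19 and 4.40 scaled TPM, by 0.42 (adjusted p = 0.0353) and 1.26 (adjusted p = 9.50e-08).

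**Figure D5:**
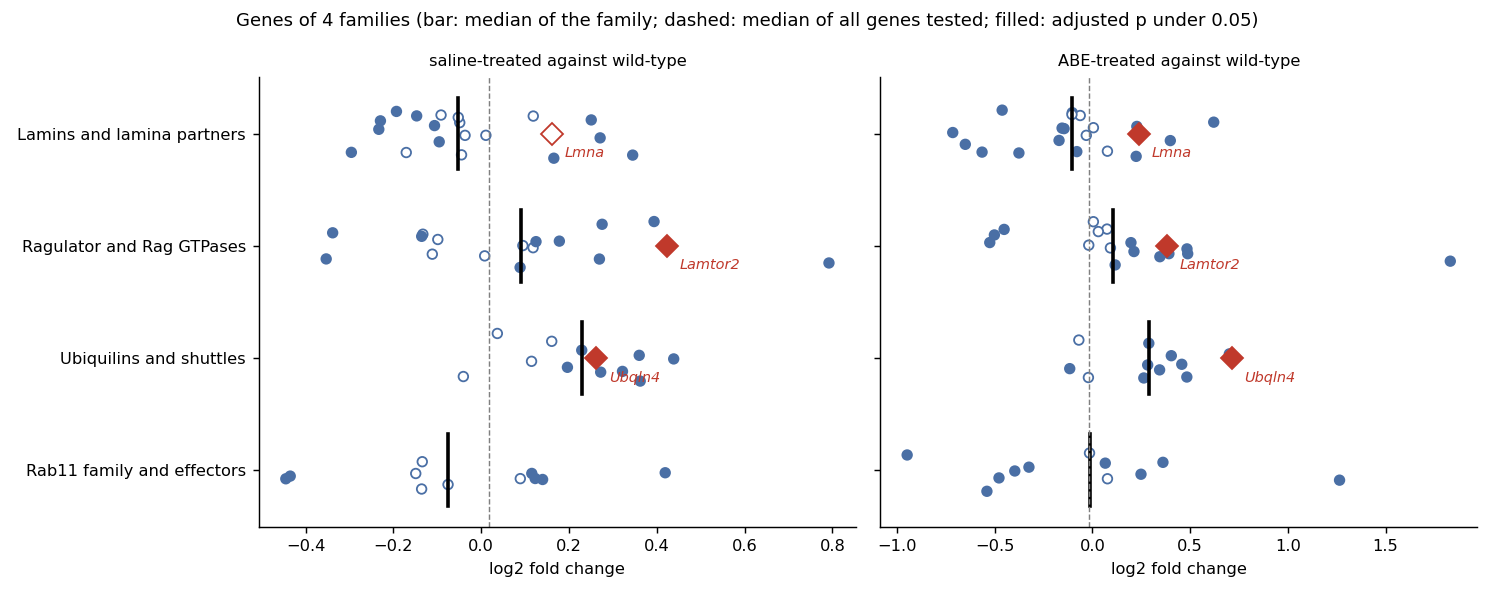
Log2 fold change (x axis) of the tested genes of 4 families (y axis, points), with *Lmna*, *Lamtor2* and *Ubqln4* as diamonds beside their families, the family's median as a bar and the median of all genes as a dashed line. After ABE *Ubqln4*, at 0.71, lies to the right of its family's median of 0.29, and *Lmna*, at 0.24, to the right of the lamina median of -0.10.

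The genes closest to each in pattern were found by the mean absolute difference, over the 36 libraries, of log2 levels centred on the wild-type mean. For *Lmna* these were *Cd81*, *Carm1*, *Dcaf4*, *Slc23a2*, *Capn2*, at distances of 0.111 to 0.119 against a median of 0.342 over 15899 genes. Among the 5 closest to *Lamtor2* were *Scp2*, *Mea1*, *Prmt1*, *Psmb1* (0.0738 to 0.0862, median 0.414). For *Ubqln4* they were *Alkbh5*, *Dffa*, *Vapb*, *Mrpl38*, *Kcmf1* (0.0610 to 0.0674, median 0.466). *Alkbh5*, for example, went from 6.22 to 7.38 and 10.3 scaled TPM, beside 3.47, 4.35 and 6.18 of *Ubqln4*. For *Rab25*, whose values barely move on this scale, they were *Dcp1b*, *Ercc4*, *Rhbdd2*, *Smyd3*, *Llgl1* (0.0494 to 0.0542, median 0.299).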

How the data were processed

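According to the study's methods and the labels, strand-specific paired-end poly(A) reads were aligned by the authors to GRCm38 with STAR (version 2.73a in the submitters' processing notes) and assigned to GENCODE genes with QoRTs. The authors deposited TPM for 56246 genes in 36 libraries, each library summing to 1000000. How TPM were calculated is not given in the sources used here. In every library 100% of the values were whole reads, within 0.01, over an effective length of 218 bp less than the gene, and these reads gave the depths and the limma-voom alternatives. Gene length and the fraction of G and C bases, also deposited by the authors, entered no test.

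TPM were divided by median ratio size factors over the 23632 genes above 0 in each library. limma 3.58.1 (R 4.3.3) was fitted to log2(scaled TPM + 0.5) of the 15902 genes with a mean of 0.5 or more, on all libraries together with sex as a covariate, and a Benjamini-Hochberg adjusted p under 0.05 was a call. Fold changes on this scale understate changes of low genes. Sex differences were interactions in a fit with 1 mean per group and sex. *Rab25* was compared by permutation with 100000 resamples, exact within a sex. No library was a duplicate of another. The fits were tested on simulated data. Permutations of *Rab25* used numpy 2.4.6 under Python 3.11.15, with scipy at 1.17.1. Coordinates are those of GENCODE vM21, which held 54487 of the 56246 identifiers, and promoters, found for all 4 genes, are RefSeq's on GRCm38.p6.

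The 4 genes and all lists were chosen with earlier results of these data known. From each list the rule named up to 5 genes of highest level and those called with a log2 fold change of 1 or more. *Slc38a9*, *Lamtor3*, *Ubqln2*, *Sema4a*, *Mex3a*, *Krt5*, *Krt8*, *Krt14*, *Krt18* and *St14* were named after their values were seen. The p-values measure the spread between mice. Other settings tried were pseudocounts of 0.1 and 1, no filter, a filter of 5, other scalings, array weights, a mean-variance trend, fits without sex, of the compared groups or of 1 sex, marker covariates and leaving out libraries. Human transgene and progerin reads were not analysed here, and 1 gene close to *Lamtor2* in pattern is not reported here.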

Additional observations from a re-analysis of the deposited data

Results flagged for a closer look

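The effect of the *LMNA* G/G genotype with ABE treatment on *Lmna* differed between the sexes. The male minus female difference in log2 fold change against wild-type was 0.50 (95% interval 0.25 to 0.74, adjusted p = 0.0203, limma interaction), with *Lmna* at 0.48 in males and at -0.012 in females. A call of this interaction was made for 3.68% of genes. All 6 ABE-treated males lay above the 6 wild-type males on scaled TPM, and 39.2% of tested genes separated these males. Of 9 interaction tests over *Lmna*, *Lamtor2* and *Ubqln4* this was the 1 called. For *Lmna* in saline-treated against wild-type mice the male minus female difference was close to it, at 0.45 (adjusted p = 0.0505, limma interaction). In ABE-treated against saline-treated mice it was 0.046 (95% interval -0.19 to 0.29, adjusted p = 0.853) and not called. On TPM as deposited none of these differences was called (limma interaction). They were 0.95 (adjusted p = 0.0615) for ABE and 0.28 (adjusted p = 0.664) for saline against wild-type, and 0.67 (adjusted p = 0.109) for ABE against saline.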

How the results depend on the processing

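Values of *Lmna* and *Ubqln4* changed with the scaling and the muscle covariate, and those of *Lamtor2* with the deposited scale and the 4 covariates. Muscle markers differed between the groups, so the covariate fits cannot fully part muscle RNA from group. *Rab25* missed the threshold in males alone, although its sex interactions were not called. Causes were not tested unless the setting itself removed samples or genes. Values are log2 fold changes for saline-treated against wild-type, ABE-treated against wild-type and ABE-treated against saline-treated mice, referred to as S/WT, A/WT and A/S.

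On TPM as deposited, *Lmna* was at -0.025, -0.31 and -0.28, *Lamtor2* at 0.24, -0.15 and -0.40 (the last called) and *Ubqln4* at 0.090, 0.19 and 0.10. With TPM rescaled after leaving out the shortest genes, *Lmna* was at -0.039 and 0.024 and *Ubqln4* at 0.077. That scale moved the median of all genes to -0.14 and -0.18, with 1868 genes higher and 6677 lower, and 3575 higher and 7735 lower. Quantile normalization gave 0.15 for *Lmna* in A/WT and 0.24 for *Ubqln4* in S/WT, neither called. The muscle covariate gave -0.023 and -0.052 for *Lmna* (A/WT and A/S) and -0.014, 0.17 and 0.19 for *Ubqln4*. The 4 covariates gave 0.11 and -0.029 for *Lmna*, 0.31 and 0.17 for *Lamtor2* (S/WT and A/WT) and 0.014, 0.16 and 0.15 for *Ubqln4*. For *Ubqln4* in S/WT, a pseudocount of 1 gave 0.24 and no filter 0.26, neither called. Array weights gave a called 0.18 for *Lmna* in S/WT.

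Females alone gave -0.063 and -0.012 for *Lmna*, 0.12 for *Lamtor2* in A/S and 0.088 for *Ubqln4* in S/WT. Males alone gave a called 0.39 for *Lmna* in S/WT and 0.33 for *Ubqln4* in A/S, which was not called. They gave -0.062, -0.059 and 0.0028 for *Rab25*.

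Genes called in S/WT went from 8315 to 13170 with no filter, 2043 with a filter of 5, 4608 on TPM as deposited, 3273 in females, 3144 with 4 covariates and 12840 by limma-voom from 10 reads. In A/WT they went from 11156 to 19138 with no filter, 2614 with a filter of 5, 5539 with the muscle covariate and 3026 with 4. In A/S they went from 7674 to 1775 with a filter of 5, 4730 in females, 3210 in males, 1896 with the muscle covariate and 1237 with 4. Of 9 sex interactions, 1 was called, against 0 on TPM as deposited and 2 with a pseudocount of 0.1, quantile normalization or array weights.

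Leaving out each library in turn gave 0.12 to 0.20, 0.20 to 0.27 and 0.036 to 0.10 for *Lmna*, 0.40 to 0.44, 0.35 to 0.41 and -0.069 to -0.012 for *Lamtor2*, 0.21 to 0.30, 0.64 to 0.78 and 0.38 to 0.52 for *Ubqln4* and -0.11 to -0.089, -0.12 to -0.098 and -0.020 to 0.00021 for *Rab25*. Genes called lay in 7741 to 8865, 10955 to 11383 and 6727 to 8451, and called sex interactions in 1 to 2. *Lmna* in S/WT was called without wild-type replicate 3 or 6, saline-treated replicate 4 or ABE-treated replicate 12. *Ubqln4* there was not called without wild-type replicate 1, 2, 3, 4, 5, 7, 8, 10, 11 or 12, saline-treated replicate 1, 2, 6, 7, 10, 11 or 12, or ABE-treated replicate 6, 8 or 12. The sign of *Rab25* in A/S changed without ABE-treated replicate 6. Of 9 sex interactions, 2 were called without wild-type replicate 5 or 10, saline-treated replicate 2, 3, 8 or 10, or ABE-treated replicate 1, 2, 3, 5 or 12.

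Covariates, quantile normalization and array weights were not run for *Rab25*, and *Ubqln4* has no value at a filter of 5. Sex interactions were not run without the sex term, within a sex, in the compared groups only or by limma-voom. No paired analysis was possible because the labels give mouse numbers only.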
